A study of Mus musculus with 37 samples.

Results

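Uroplakins are the membrane proteins that build the crystalline plaques on the surface of umbrella cells, the superficial cell layer of the urothelium that lines the renal pelvis, ureter and bladder. Upk1a and Upk1b are tetraspanins, whereas Upk2, Upk3a and Upk3b cross the membrane once. Upk1a pairs with Upk2, and Upk1b pairs with Upk3a or Upk3b, in the endoplasmic reticulum, and the pairs then travel in fusiform vesicles to the apical membrane, where they form the permeability barrier and are used as a sign of urothelial differentiation. The 5 genes (Upk1a, Upk1b, Upk2, Upk3a and Upk3b) were taken by name from a table of 24421 gene symbols, not by a filter on their values. Earlier results of these data were known when they were chosen. All 5 passed the filter on low counts that kept 18959 genes for testing. Upk3bl (Upk3b-like), which lies next to Upk3b, was followed beside them as a relative.

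The libraries came from wild-type female BALB/c mice. Of these, 10 mice received the nitrosamine carcinogen BBN (N-butyl-N-(4-hydroxybutyl)nitrosamine) in drinking water for 18 weeks and 3 mice received plain tap water, and no transgene was involved in any group. RNA-seq counts were compared between cancerous upper tracts (UT, 11 libraries from 10 mice, with both sides of mouse 5), noncancerous upper tracts on the other side of 7 of these mice (UN, 7 libraries), ureters of untreated mice (U, 6 libraries, both sides of 3 mice), bladders of BBN mice (10 libraries) and bladders of untreated mice (3 libraries). The name of the bladder library of mouse 6 carries the letter T, as the names of the UT libraries do. The names of the other BBN bladders carry N, as those of the UN libraries do. RNA was from whole tissue without sorting, so that in each comparison fewer urothelial cells and less uroplakin RNA per cell cannot be told apart. No age was given in the labels.

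The libraries held between 3557697 and 18793560 counts, and the 4 shallowest were the BBN bladders of mice 1, 3 and 4 and UN 6. The makeup of the tissue pieces differed with the groups. The summed level of 7 epithelial marker genes (Epcam, Cdh1, Cldn7, Esrp1, Esrp2, Grhl2 and St14) was 169 to 329 CPM (each count divided by the library's total and scaled to a common depth) in U, 319 to 3137 in UT, 8.27 to 1543 in UN, 161 to 3608 in BBN bladder and 1364 to 1547 in untreated bladder. The summed level of 5 adipocyte markers was 16484 to 24133 CPM in U, 3557 to 21314 in UN and 33.1 to 13420 in UT. UN 2 had the lowest epithelial sum and an adipocyte sum of 21314 CPM, so it held little epithelium, and UT 4 had a kidney tubule marker sum of 2261 CPM. The summed epithelial and smooth muscle markers were above 0 in every library, and no library was left out of the main tests.

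Positions are those of GENCODE on GRCm38 (mm10), the build named in the submitters' notes. Upk1a lies at chr7:30603092-30612847 on the minus strand, Upk1b at chr16:38773184-38800328 (minus), Upk2 at chr9:44452715-44454976 (minus), Upk3a at chr15:85017141-85022547 (plus) and Upk3b at chr5:136038496-136046487 (plus). Upk3bl lies downstream of Upk3b on the same strand, at chr5:136054492-136064326. No annotated gene overlapped any of the 6. Because Upk3b and Upk3bl are related in sequence and the counting program is not given in the sources used here, reads shared between these paralogs may have been counted for either gene.

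The bases just before the start sites of Upk3a and Upk3b are shown because these are the alternative partners of Upk1b, whose ratios are given later. Sequences are from RefSeq (GRCm38.p6), read 5′ to 3′ on the plus strand at chr15:85016891-85017140 and chr5:136038246-136038495. The RefSeq table held 4 of the 6 genes. Capitals mark matches to the searched motifs.
Upk3a: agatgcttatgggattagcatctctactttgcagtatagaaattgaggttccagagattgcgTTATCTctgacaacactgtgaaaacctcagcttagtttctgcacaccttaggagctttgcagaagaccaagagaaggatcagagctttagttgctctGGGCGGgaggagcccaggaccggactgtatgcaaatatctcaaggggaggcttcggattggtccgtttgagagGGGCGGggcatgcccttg
Upk3b: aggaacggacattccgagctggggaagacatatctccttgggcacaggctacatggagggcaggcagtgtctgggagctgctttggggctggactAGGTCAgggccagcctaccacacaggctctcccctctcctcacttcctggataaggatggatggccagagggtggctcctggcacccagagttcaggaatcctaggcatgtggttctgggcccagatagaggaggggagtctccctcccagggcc
The motifs searched on both strands were the TATA box TATAAA with its variant TATATA, the GATA motif AGATAA with its variant TGATAA, the AP-1 motif TGANTCA, the GC box GGGCGG, the nuclear receptor half-site AGGTCA and the grainyhead motif AACCNGTT, and no matches overlapped. The Upk3a window held 1 AGATAA, which 10.3% of 27025 promoters hold in windows of the same length, and 2 GGGCGG, which 32.9% hold at least once. The Upk3b window held 1 AGGTCA, which 13.8% of promoters hold. These matches describe the letters only.

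Uroplakin RNA was most abundant in untreated bladder, where the 5 genes together took 1.47 to 1.53% of all counts. The same share was 0.0913 to 0.184% in U, 0.0306 to 0.17% in BBN bladder, 0.000877 to 0.220% in UN and 0.00769 to 0.207% in UT. On a scale of CPM per kilobase of exon, which allows levels of different genes to be compared roughly, the medians in untreated bladder were 4619 for Upk3a, 3090 for Upk1a, 1994 for Upk1b, 1046 for Upk2 and 103 for Upk3b. The divisor was all annotated exon bases of a gene, 3530 for Upk3b and 1083 to 2089 for the others, which can be more than its transcript holds. The order by median was the same in U, at 553, 207, 199, 91.0 and 19.3 CPM per kilobase, although the close medians of Upk1a and Upk1b there were not separated by the spread between libraries. The order was different after BBN. In UT the medians were 249.3 for Upk3a, 117 for Upk1b, 16.8 for Upk2, 8.12 for Upk1a and 3.04 for Upk3b, so that Upk1a stood below Upk2. In BBN bladder Upk1b was first at 200, followed by Upk3a at 137, Upk1a at 36.7, Upk2 at 17.1 and Upk3b at 4.24. Upk1a made up a median of 29.4% of uroplakin counts in untreated bladder and 19.9% in U, but 5.37% in BBN bladder, 5.99% in UN and 2.03% in UT.

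**Figure D1:**
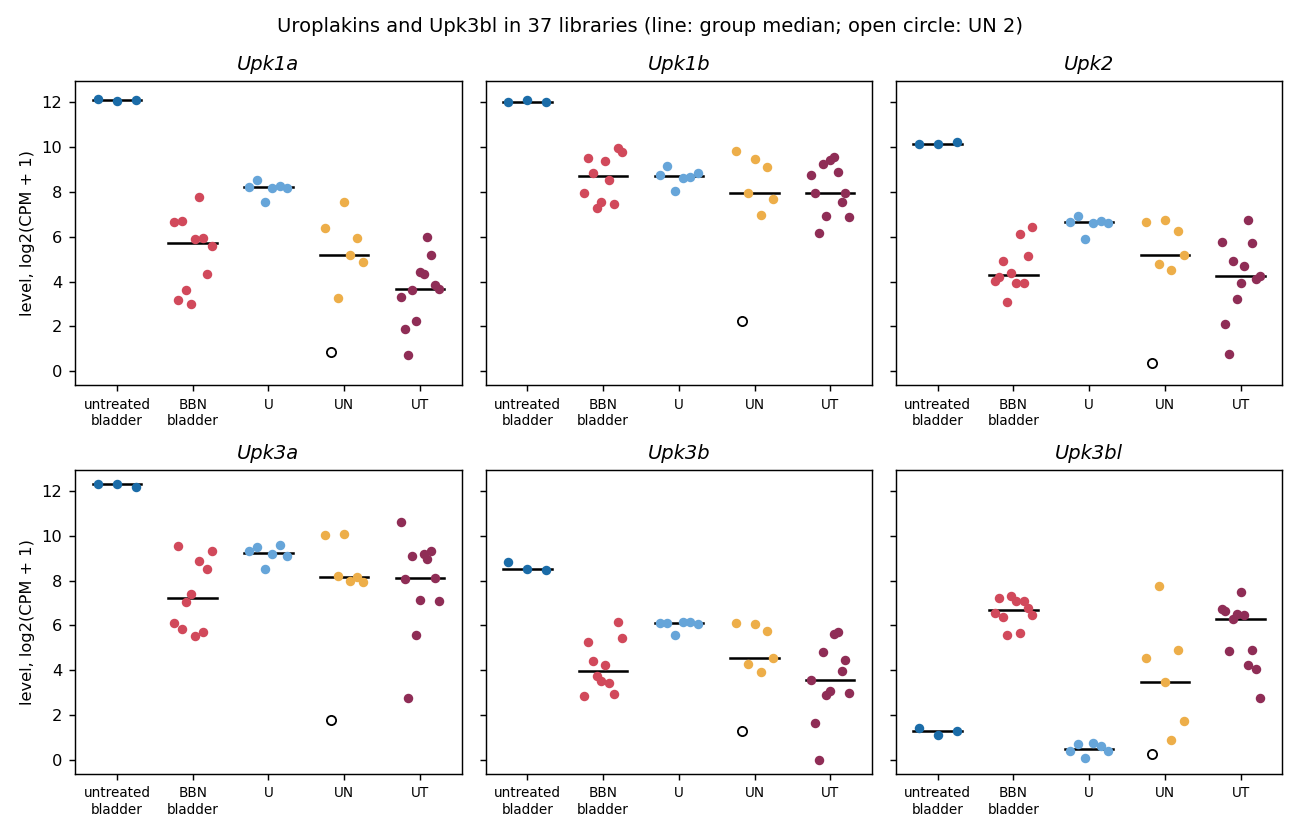
Level of each uroplakin and of Upk3bl in every library by group, as log2(CPM + 1), with a line at the group median and UN 2 as an open circle. The 3 untreated bladders sit above every other library for all 5 uroplakins, Upk1a in the 11 UT libraries sits below all 6 U libraries, and Upk3bl has the opposite order in the BBN tissues.

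The question in bladder was how BBN tissue differs from untreated tissue. All 5 uroplakins were lower in BBN bladder, from 84.3-fold by medians for Upk1a to 9.95-fold for Upk1b. Upk1a was at 4497, 4283 and 4391 CPM in the 3 untreated bladders and between 6.90 and 218 CPM, with a median of 52.1, in the 10 BBN bladders. Its partner Upk2 was at 1133, 1106 and 1177 CPM in untreated bladder and at 7.59 to 85.5 CPM, median 18.6, in BBN bladder. The highest BBN bladder for Upk1a, that of mouse 6, was still below the lowest untreated one, and the groups did not overlap for either gene.

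Upk1b, the tetraspanin that pairs with Upk3a and Upk3b, had the highest median per kilobase in BBN bladder, where its range overlapped that of Upk3a. Its level there was 154 to 994 CPM with a median of 419, against 4166, 4317 and 4125 CPM in untreated bladder. Upk3a fell from 5049, 5133 and 4625 CPM to 44.9 to 753 CPM with a median of 149. Upk3b was at 447, 363 and 354 CPM in untreated bladder and at 6.16 to 71.0 CPM, median 15.0, in BBN bladder. None of these 3 genes overlapped between the groups either. Non-overlap with all BBN bladders below was seen for 5 of 5 uroplakins and for 11.5% of all genes tested.

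In the edgeR quasi-likelihood fit, with Benjamini-Hochberg adjustment over all genes and a call at an FDR under 0.1 with at least a 2-fold change, 5 of 5 uroplakins were called lower in BBN bladder, where 8.14% of all genes were. The log2 fold changes were -5.74 for Upk1a (SE 0.85, adjusted p = 1.39e-05), -4.95 for Upk2 (SE 0.75, 1.96e-05), -3.94 for Upk3b (SE 0.70, 0.000174), -3.94 for Upk3a (SE 0.84, 0.00138) and -2.99 for Upk1b (SE 0.59, 0.00054). Their median was -3.94, whereas the median over all genes was 0.23. Without the bladder of mouse 6, whose library name also carries the letter T, Upk1a was at -6.34. Over the same libraries the epithelial markers gave 0 higher and 1 lower of 7, with a median log2 fold change of -0.0071. Stromal markers were lower beside the uroplakins, with 3 of 6 fibroblast and 3 of 8 smooth muscle markers called lower. The fibroblast sums were 740 to 5253 CPM, median 1411, in BBN bladder and 4908 to 7129 in untreated bladder, and the smooth muscle sums 1042 to 7635, median 4446, and 9579 to 11469. Their part was not tested. The single libraries went both ways, however, with epithelial sums of 161 to 576 CPM in the BBN bladders of mice 1, 3, 4 and 6 and 2099.5 to 3608 CPM in the other 6, against 1364 to 1547 CPM in untreated bladder. The bladders of mice 1, 3 and 4 also had 21.5 to 29.5% of their counts in their top 10 genes, where the other BBN bladders had 5.17 to 12.2% and the untreated ones 7.42 to 7.67%. Without the 4 shallowest libraries, which include these 3, 5 of 5 uroplakins were called lower in edgeR as well. Of the luminal markers (keratins and claudins of the upper layers and Psca) 2 of 8 were called lower.

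The untreated ureter was also compared with the untreated bladder, to see how the level depends on the organ. Uroplakins were lower in U, by medians from 15.0-fold for Upk1a to 5.34-fold for Upk3b. Upk1a ranged from 184 to 364 CPM in the 6 U libraries with a median of 294, Upk1b from 259 to 561 with a median of 416, and Upk3a from 365 to 776 with a median of 605. Upk2 ranged from 58.7 to 120.4 CPM with a median of 98.6, and Upk3b from 46.6 to 70.7 with a median of 68.0. No U library reached the untreated bladders for any of the 5, and 39.1% of all genes showed that pattern of non-overlap. In edgeR 5 of 5 were called lower, against 8.61% of all genes, at log2 -3.62 for Upk1a (SE 0.97, adjusted p = 0.0111), -3.26 for Upk2 (SE 0.86, 0.0102), -3.02 for Upk1b (SE 0.68, 0.00314), -2.72 for Upk3a (SE 0.98, 0.0624) and -2.27 for Upk3b (SE 0.81, 0.0589). The epithelial markers were called lower as well, in 7 of 7 with a median of -2.36, and the adipocyte markers higher in 5 of 5 with a median of 6.52, so that the uroplakin differences lay beside a lower epithelial level. The calls of both Upk3a and Upk3b were lost when any 1 of the 3 untreated bladders or U 2L was left out, and that of Upk3a also without U 3R, with log2 values of -2.76 to -2.61 for Upk3a and -2.33 to -2.16 for Upk3b.

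**Figure D2:**
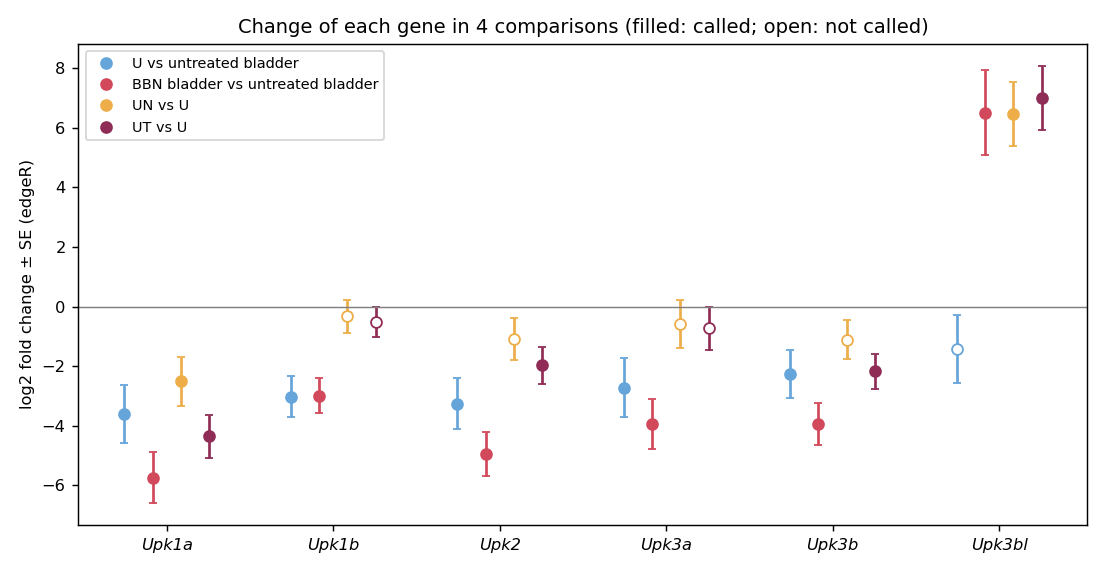
log2 fold change of each uroplakin and of Upk3bl in 4 comparisons from edgeR, with bars of 1 SE, filled points for called genes and open points for the rest. In BBN bladder all 5 uroplakins are called lower, in UT against U Upk1a, Upk2 and Upk3b are, and Upk3bl is called higher in all 3 comparisons of BBN with untreated tissue.

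For the cancerous ureter (UT against U), the question was which uroplakins differ in tumor tissue. Upk1a was 25.5-fold lower by medians, Upk3b 6.32-fold and Upk2 5.41-fold, whereas Upk1b and Upk3a did not pass the test. Upk1a was between 0.648 and 62.8 CPM in the 11 UT libraries with a median of 11.5. Every UT library was below every U library, also UT 6, the highest. Such non-overlap with UT below was seen for 1 of 5 uroplakins and for 3.7% of all genes.

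Upk2 was at 0.720 to 105 CPM in UT, median 18.2, and 10 of 11 UT libraries were below all U libraries. Upk3b was at 0 to 50.6 CPM with a median of 10.7, and 9 of 11 were below all U libraries. Its count of 0 in UT 2 allows a level of up to 0.216 CPM, taking 3 counts as the limit and counting error only. Upk1b was at 69.8 to 741 CPM with a median of 245, with 6 libraries below and 3 above all U libraries. Upk3a was at 5.76 to 1563 CPM with a median of 273, with 6 below and 1, UT 1, above. UT 2 was the lowest UT library for all 5 genes.

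In edgeR 3 of 5 uroplakins were called lower in UT, where 9.96% of all genes were. The log2 fold changes were -4.36 for Upk1a (SE 0.73, adjusted p = 3.38e-05), -2.17 for Upk3b (SE 0.59, 0.00487) and -1.98 for Upk2 (SE 0.62, 0.0141), against a median of 0.10 over all genes. Those of Upk3a (-0.73, SE 0.71, adjusted p = 0.481) and Upk1b (-0.51, SE 0.50, 0.483) did not pass in edgeR, which does not show that these genes were unaltered. Without UT 1 Upk3a was at -1.25 (adjusted p = 0.181 in edgeR). Upk3a passed in limma voom with a variance for each group, at log2 -1.70 with an adjusted p of 0.0251. The epithelial markers moved the other way, with 6 of 7 called higher, where 16.5% of all genes were, and a median of 2.41. Of the adipocyte markers 5 of 5 were called lower, and of the smooth muscle markers 6 of 8. Immune markers were called higher in 5 of 7, with a median of 1.94 and sums of 131 to 995 CPM in UT against 106 to 198 in U. The calls of Cd3e (0.88, adjusted p = 0.584) and Cd79a (2.99, 0.109) were lost with the mouse as a block in limma. That of Cd3e was also lost with voom (0.90, adjusted p = 0.301) and in edgeR without UT 6 or U 1R, 1L, 2R or 2L. Kidney tubule markers were called higher in 6 of 6, with a sum of 2261 CPM in UT 4 and of 2.26 to 11.9 in the other UT libraries, against 0.637 to 5.99 in U. Their part in the uroplakin values was not tested.

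In the noncancerous side (UN against U) a single uroplakin was called in edgeR. Upk1a was at 0.823 to 185 CPM in the 7 UN libraries with a median of 35.1, and 6 of 7 were below all U libraries, the exception being UN 4. Its log2 fold change in edgeR was -2.51 (SE 0.81, adjusted p = 0.0517), so 1 of 5 uroplakins was called lower where 0.971% of all genes were. The other 4 were between -1.11 and -0.33 with adjusted p from 0.32 to 0.754 in edgeR. Of these, Upk2 was called lower in limma voom with a variance for each group (-1.88, adjusted p = 0.0633). The call of Upk1a was lost without UN 3, at -2.32 with an adjusted p of 0.115 in edgeR, and its value was -3.15 without UN 4. UN spread widely, with Upk1b at 3.75 to 893 CPM, median 247, and Upk3a at 2.47 to 1086 CPM, median 288. Upk2 spanned 0.274 to 107.5 CPM with a median of 34.9 and Upk3b 1.46 to 67.4 CPM with a median of 22.5. The lowest value of each was in UN 2, the library with little epithelium. Immune markers were called higher in 3 of 7, where 8.44% of all genes were. Their sums were 116 to 643 CPM, median 324, in UN and 106 to 198, median 129, in U. Of the epithelial markers 1 of 7 was called higher (Epcam, 2.83), and 0 of 5 adipocyte and 0 of 8 smooth muscle markers were called. The part of these cell types in the uroplakin values was not tested.

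Between UT and UN, edgeR called 0 of 5 uroplakins, where 2.6% of all genes were called. Before adjustment 1 of 5 reached a p under 0.05 in edgeR, as did 21.1% of all genes. That gene was Upk1a at log2 -1.85 (SE 0.67, adjusted p = 0.131), and DESeq2 called it with an adjusted p of 0.0602. Upk1a also passed in edgeR without UN 3 (-2.04, adjusted p = 0.0721), without UT 6 (-2.27, 0.0793) or without UN 7 (-1.87, 0.0962). The other 4 lay between -1.06 for Upk3b and -0.15 for Upk3a. These 3 ureter comparisons share libraries and are not independent of each other.

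Taken within mice, where both sides of the same animal were available, Upk1a was lower on the UT side in 5 of 7 mice, with a mean difference of log2 CPM of -1.33 ± 2.16 (SD). Mouse 4 had the largest difference, -5.29, and mouse 6 went the other way by 0.82. Upk3b was lower in 5 of 7 mice (-1.16 ± 1.72), Upk2 and Upk1b in 4 of 7 each and Upk3a in 2 of 7. Against the bladder of the same mouse, Upk1a was lower in UT in 9 of 10 mice (-1.78 ± 1.75), and the other 4 uroplakins in 5 of 10 each.

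Over libraries, UT against BBN bladder gave 1 of 5 uroplakins called lower in edgeR, where 21.9% of all genes were. That gene was Upk1a, at log2 -2.23 (SE 0.64, adjusted p = 0.00711), and the value was -1.64 without the BBN bladder of mouse 6. Smooth muscle markers were called lower in UT in 7 of 8. Markers called higher were 5 of 5 adipocyte, 5 of 7 immune, 4 of 6 kidney tubule and 3 of 6 fibroblast genes, where 1325 of 18959 genes were. Of the epithelial markers 0 of 7 were called. The part of these cell types in the Upk1a value was not tested. UN against BBN bladder gave 0 of 5 called in edgeR or DESeq2 and 0 of 5 with an unadjusted p under 0.05 in edgeR, where 18.3% of all genes were called and 32.1% had such a p, with log2 values from -0.39 to 0.64.

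The test of whether the BBN difference in UN departs from that in bladder called 1 of 5 uroplakins higher, where 1.74% of all genes were. It was Upk2, with a difference between the log2 changes of 3.86 (SE 1.05, adjusted p = 0.0555 in edgeR). The remaining 4 had positive differences of 2.66 to 3.35 that did not pass, with adjusted p from 0.113 to 0.197 in edgeR. The Upk2 call was lost without UN 4, U 2L or any 1 untreated bladder, with values of 3.58 to 3.9, and with the mouse as a block at 3.33 (adjusted p = 0.261, limma). Without UN 2 the differences of Upk1b at 2.88, Upk3a at 3.57 and Upk3b at 3.04 were called too, as was Upk1b without UN 6 (2.77) or the BBN bladder of mouse 8 (2.78) and Upk1a without the BBN bladder of mouse 6 (3.83).

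Partners were also compared within each library, as log2 ratios of CPM + 1. The log2 ratio of Upk1a to Upk2 was 1.54 to 1.63 in the 6 U libraries with a median of 1.58, -1.52 to 0.78 in UN with a median of -0.24 and -2.43 to 0.47 in UT with a median of -0.50. No UN or UT library reached the U libraries, so Upk1a was lower relative to its partner on both sides of BBN ureters. With 1 value for each mouse, the difference was -2.28 for UT against U (exact permutation p = 0.0035, adjusted p = 0.016 over 32 ratio tests) and -1.64 for UN against U (exact permutation p = 0.00833, adjusted p = 0.0205), each the smallest p that these group sizes allow. In BBN bladder the ratio was -1.39 to 2.64, wider than in untreated bladder (1.90 to 1.99), and the difference of -1.30 did not pass (exact permutation, adjusted p = 0.248). UT and UN differed by -0.64 (exact permutation, adjusted p = 0.129), or by -0.89 and past the threshold without UN 3.

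Upk1b was compared with both of its partners. Relative to Upk3b, Upk1b was raised in UT over U by 1.89 (exact permutation, adjusted p = 0.0249), in UT over UN by 1.51 (adjusted p = 0.0186), and in BBN over untreated bladder by 0.98 (adjusted p = 0.0224). In the 7 mice with both sides it was higher on the UT side in 7 of 7, with a mean of 1.32 (SD 1.76) and an exact sign-flip p of 0.0156, the smallest that 7 pairs allow, and 0.075 after adjustment. Mouse 2, whose UN library held little epithelium, had much the largest difference, and the mean of the other 6 mice was 0.68 (SD 0.48). The call between UT and UN was lost without UN 2 and the 4 shallowest libraries (1.09, exact permutation, adjusted p = 0.0714). Relative to Upk3a, Upk1b passed in no comparison, which does not show that the partners differ, with differences of 0.34 to 1.46 and exact permutation adjusted p of 0.0985 to 0.607. The call in bladder was lost with a pseudocount of 4 CPM (0.74, exact permutation, adjusted p = 0.061) and without any 1 of the 3 untreated bladders, at 0.87 to 1.05, and the ratio in UN against U of 0.38 was 0.73 and called without UN 2.

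**Figure D3:**
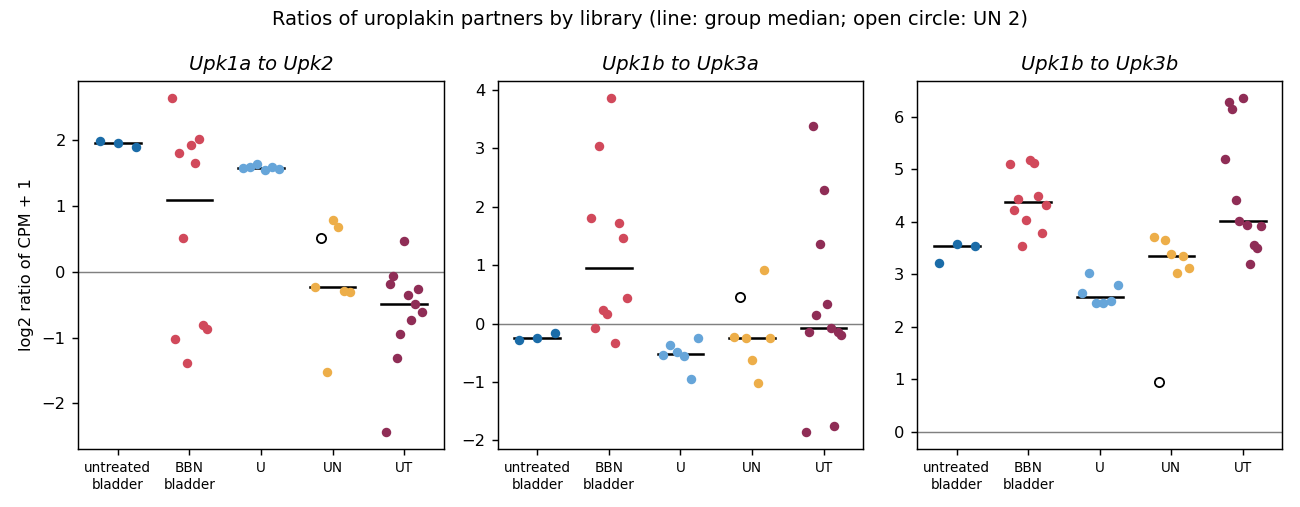
log2 ratio of partner uroplakins, (CPM + 1) over (CPM + 1), in each library by group, with a line at the group median and UN 2 as an open circle. The Upk1a to Upk2 ratio of the 6 U libraries sits in a narrow band above all UN and UT libraries, whereas the Upk1b to Upk3a ratio of the groups overlaps.

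Set against the summed epithelial markers of the same library, all 5 uroplakins were lower in UT than in U, with log2 differences of -7.14 for Upk1a, -5.07 for Upk3b, -4.86 for Upk2, -3.91 for Upk3a and -3.18 for Upk1b (exact permutation, adjusted p from 0.016 to 0.048). The epithelial sum itself had a median of 1586 CPM in UT and 268 in U, so such a ratio falls also where the uroplakin does not. Upk3a and Upk1b alone had not passed in edgeR. How much of each difference lay in the markers was not tested. In U, Upk1a was at log2 0.01 to 0.63 relative to the epithelial sum, and in UT at -10.9 to -3.99. The same ratios were lower in BBN than in untreated bladder for all 5, from -6.42 for Upk1a to -3.00 for Upk1b (exact permutation, adjusted p of 0.016 to 0.0186). In UN against U, Upk1a (-3.73), Upk2 (-2.10) and Upk1b (-1.52) passed (exact permutation, adjusted p from 0.04 to 0.0485), and Upk3a and Upk3b, both at -1.90, did not (0.0696 and 0.0778). Between UT and UN 4 of 5 passed, with Upk3a at -2.0 the exception (exact permutation, adjusted p = 0.10).

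Several of these calls rested on single libraries. The Upk3a ratio in UT against U lost its call, at -4.14 to -3.64, in 13 of the single-library omissions, those of UT 3, 4, 5L, 7, 8 or 10, UN 1, 7 or 9, U 3L or any untreated bladder. That of Upk1b in UN against U was lost, at -1.65 to -1.41, in these 13 and without UN 2 or UN 4. Libraries outside a comparison act through the adjustment over the 32 tests. The Upk1a ratio in UN against U was not called without UN 1, at -3.67, nor was that of Upk2 without UN 1, UN 7, UN 9 or U 3L, at -2.17 to -1.96, and that of Upk3a in bladder was lost without untreated bladder 1 or 2, at -4.46 and -4.39. The Upk3a ratio in UN against U, -2.25, was called without UN 6 and that of Upk3b, -2.22, without UN 2. With a pseudocount of 4 CPM the UN against U ratios of Upk1b (-1.47, adjusted p = 0.0533) and Upk2 (-1.86, 0.061) were no longer called by the exact permutation test. Those of Upk3a and Upk3b were called when the log2 values of the 7 markers were averaged (-1.99 and -1.98, exact permutation, adjusted p of 0.0464 and 0.0281) or when every library counted as 1 value (0.0124 and 0.0114). Without UN 2 and the 4 shallowest libraries, Upk1a, Upk1b, Upk2 and Upk3b were no longer called between UT and UN (exact permutation, adjusted p of 0.0613, 0.0714, 0.0772 and 0.0559). The calls of Upk1b and Upk2 in UN against U and of Upk3a in UT against U were lost there too, and Upk3b in UN against U was called. With sign flips within the 7 mice, 0 of 5 between UT and UN passed, at adjusted p of 0.075 or above by the exact test.

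**Figure D4:**
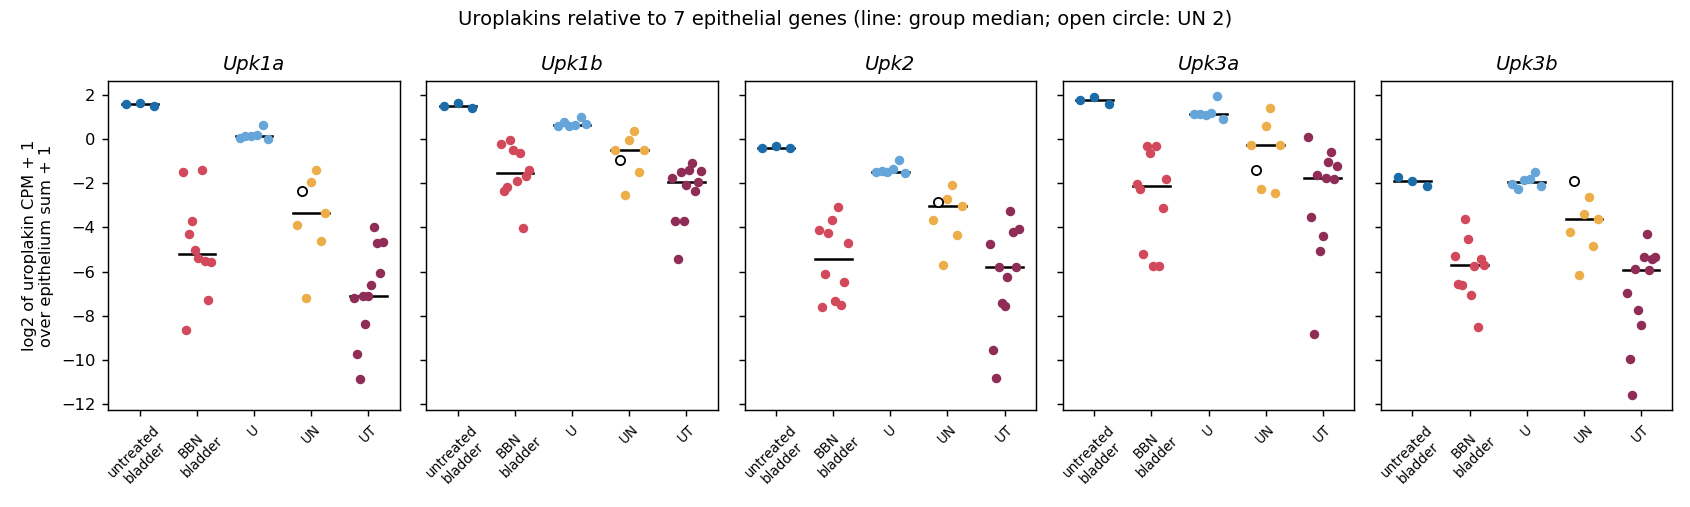
log2 ratio of each uroplakin to the summed CPM of 7 epithelial markers, plus 1, in each library by group, with a line at the group median and UN 2 as an open circle. U and untreated bladder form narrow bands, and for all 5 genes the 11 UT libraries are spread widely below the 6 U libraries.

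Upk3bl, the relative of Upk3b, went in the opposite direction. It was at 0.062 to 0.692 CPM in U and at 1.67, 1.13 and 1.44 CPM in untreated bladder. In BBN tissue it was at 46.7 to 157 CPM in bladder with a median of 102, at 5.73 to 181 in UT with a median of 78.0 and at 0.183 to 217 in UN with a median of 10.1. All 11 UT libraries were above all U libraries and all 10 BBN bladders above the 3 untreated ones, patterns shown by 12.4% and 4.77% of all genes respectively. Of the 7 UN libraries 6 were above all U libraries, UN 2 being the exception.

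In edgeR Upk3bl was called higher in UT than in U, at log2 7.0 (SE 1.08, adjusted p = 1.35e-05), where 16.5% of all genes were called higher. It was called higher in UN than in U, at 6.45 (SE 1.07, adjusted p = 0.000271), where 8.44% were, and in BBN bladder, at 6.51 (SE 1.43, adjusted p = 0.00174), where 21.7% were. UN 3 held the highest UN level, and without it the UN value was 4.36 and the difference between UT and UN, 0.55 over all libraries (adjusted p = 0.661), was 2.64 and called in edgeR (adjusted p = 0.0296). The BBN difference of Upk3bl in UN and in bladder differed by -0.06, which did not pass, and by -2.16 without UN 3. Against BBN bladder, 6 of 7 UN libraries were below all bladders and 1, UN 3, above. Upk3bl was not called there in edgeR (-1.48, adjusted p = 0.157). It was called lower with DESeq2 (-1.74, adjusted p = 0.048), with voom (-3.35, 0.0202) and in edgeR with the mouse as a block (-3.43, 0.0108) or without UN 3 (-3.57, 0.00031). The levels in U are a few counts per library, so the size of the fold changes against U and of the difference of responses is set by low values.

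**Figure D5:**
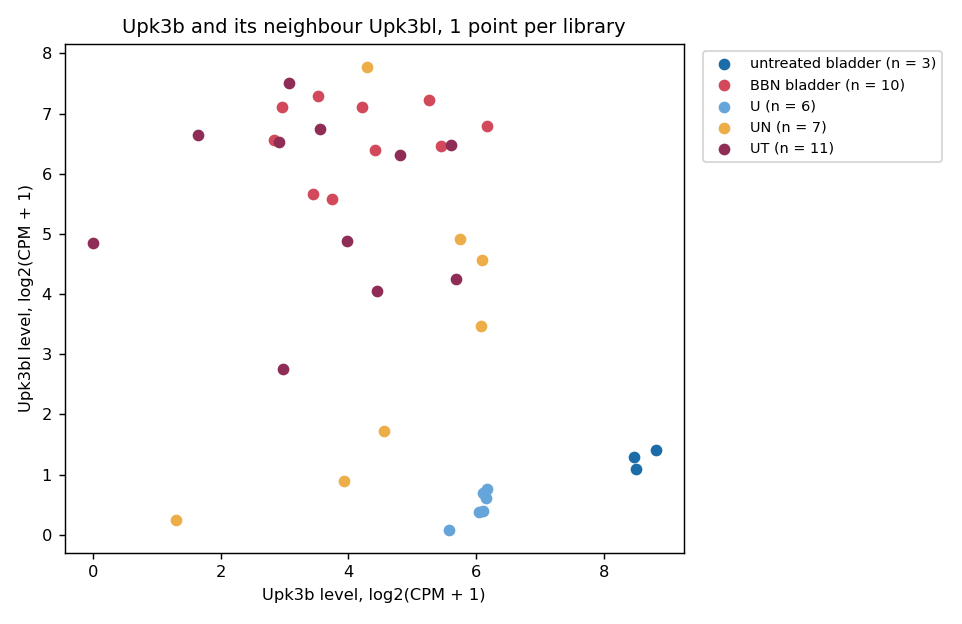
Upk3bl against Upk3b in each library, both as log2(CPM + 1), coloured by group. Untreated tissues lie at low Upk3bl and high Upk3b, and most BBN libraries at higher Upk3bl and lower Upk3b.

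Of 9 genes of uroplakin traffic, UT against U gave 1 lower and 1 higher, shares near the 9.96% and 16.5% of all genes, with a median log2 fold change of 0.50. The lower one was Snx31, a sorting nexin that binds uroplakins on endosomes (-2.57, SE 0.62, adjusted p = 0.00161 in edgeR), and the higher one was Vamp8, a vesicle fusion protein (1.07, SE 0.42, 0.0498), which was under 2-fold without UT 1 (0.92) and with RLE normalization or DESeq2. In BBN bladder 4 of 9 were lower, where 8.14% of all genes were, and 1 was higher, with a median of -0.55. The lower ones were Snx31 (-5.28, SE 0.75, adjusted p = 6.73e-06 in edgeR), Sytl2 (-2.39), Rab27b, the small GTPase that brings fusiform vesicles to the apical membrane (-2.30), and Myo5b, a vesicle motor (-2.01). In UN against U the median was 0.017, and Snx31 was at -1.35 (SE 0.70, adjusted p = 0.244 in edgeR).

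Snx31 had medians of 1565 CPM in untreated bladder, 191.5 in U, 60.1 in UN, 39.1 in UT and 21.9 in BBN bladder. It was also the gene whose pattern was most like the mean of the 5 uroplakins, with a Pearson correlation of 0.974 over the 37 libraries and 0.945 over the 28 BBN libraries alone. The next were Acer2 (0.923), 9130409J20Rik (0.915), Sptlc3 (0.910), Shh (0.909), Paqr5 (0.906), Sh3gl2 (0.893), Fmo5 (0.892), Nipal4 (0.890) and Extl1 (0.886). At the other end were S100a8 (-0.768), S100a9 (-0.753), Csf3r (-0.728) and Clec4e (-0.711), genes of neutrophils and other myeloid cells. These coefficients are descriptions, since the libraries share mice, groups and epithelial content.

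The 5 uroplakins were themselves related to different degrees. Over the 28 BBN libraries the correlation was 0.828 between Upk2 and Upk3b, 0.819 between Upk2 and Upk3a and 0.766 between Upk1a and Upk2, but 0.433 between Upk1a and Upk3a, and without UN 2 the last was 0.287. Within groups the coefficient of Upk1a and Upk3a was 0.901 in the 7 UN, 0.678 in the 11 UT and -0.298 in the 10 BBN bladder libraries. Over the 28 BBN libraries Upk3bl had coefficients of 0.04 with Upk1a, 0.56 with Upk1b, 0.11 with Upk2, 0.20 with Upk3a and 0.09 with Upk3b. Without UN 2 these were -0.19, 0.33, -0.19, -0.10 and -0.10. The individual companions differed as well: Upk2, Upk3a and Upk3b each had Snx31 first (0.963, 0.905 and 0.959 over 37 libraries), Upk1a had Cspg5 (0.937) and Upk1b had Bcl2l14 (0.944).

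Transcription factors of the urothelium were split. In UT against U 5 of 9 were called higher and 1 lower in edgeR, with a median of 1.03, where 16.5% of all genes were higher and 9.96% lower. Elf3 (3.24, SE 0.64), Ehf (2.40, SE 0.60) and Klf5 (2.35, SE 0.58) were higher, as was Foxa1 (1.27, SE 0.51, adjusted p = 0.0552), whose call was lost without UT 1 or U 3L (1.10 and 1.13) and with the mouse as a block (1.08, adjusted p = 0.262, limma). Pparg, a nuclear receptor of urothelial differentiation that adipocytes also express, was lower (-2.16, SE 0.44, adjusted p = 0.000275), beside adipocyte marker sums that were lower too, whose part was not tested. In BBN bladder Pparg was also lower (-2.16, SE 0.53, adjusted p = 0.00445 in edgeR), as was Gata3 (-2.14, SE 0.57, 0.00922), and 4 of 9 factors were lower in all, where 8.14% of all genes were. Adipocyte sums there had a median of 102 CPM against 508 in untreated bladder, with the bladders of mice 1 and 3 at 1895 and 768 CPM, and their part in the Pparg value was not tested.

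Of other epithelial markers, where 16.5% of all genes were called higher in UT than in U, 4 of 8 luminal genes were, led by Cldn4 (2.30, SE 0.64) and Krt19 (1.92, SE 0.57), whereas Krt20, the keratin of umbrella cells, was at -1.10 (SE 0.69, adjusted p = 0.246 in edgeR). Krt20 was called lower in a fit of the ureter libraries alone (-1.10, adjusted p = 0.0883), of the compared groups alone (-1.10, 0.00569) and with voom (-1.25, 0.0459). Of the genes called higher, Krt7 (1.22, adjusted p = 0.216) and Krt8 (1.07, 0.300) lost the call with the mouse as a block in limma, and Krt8 also without any 1 of UT 1, 3, 5R and 6 and U 1L, 2R, 2L, 3R and 3L, at 1.08 to 1.28. The basal list was higher in 6 of 7, with Krt17 at 8.76 and Krt14 at 7.51, and the squamous list in 7 of 9, with Krt6b at 8.0. In UN against U, basal genes were called higher in 6 of 7 and squamous genes in 6 of 9, where 8.44% of all genes were. Of the luminal genes edgeR called 0 of 8 there, with 2 of 8 at an unadjusted p under 0.05 (Krt19 and Cldn4), near the 22.4% of all genes, and a median of 1.021. Median log2 fold changes in UT against U were -1.98 for the uroplakins, 1.13 for the luminal list, 3.94 for the basal list and 5.53 for the squamous list. Mesothelial cells also express Upk3b, and of 5 mesothelial markers tested in UT against U 2 were called higher and 1 lower, with a median of 0.23, where 16.5% and 9.96% of all genes were. Msln was higher (5.0, SE 0.92, adjusted p = 0.000101 in edgeR) and Lrrn4 was lower (-2.12, SE 0.64, 0.0114), and the part of mesothelium in the Upk3b values was not tested.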

How the data were processed

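WTS (whole transcriptome sequencing, or RNA-seq) libraries of mouse tissue were sequenced without keeping strand. The authors deposited 1 table of estimated counts per gene for 37 libraries, 21.1% of whose nonzero values were fractional, and these were rounded to whole numbers. The submitters' processing notes name TopHat2 2.1.1, Cuffdiff 2.2.1 and GRCm38 (mm10) without a role; the counting program and its gene annotation are not given in the sources used here. Depth was 3557697 to 18793560 counts per library. No pair of libraries within a group agreed within sampling noise.

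CPM was the deposited count over the library's total. Tests were the quasi-likelihood test of edgeR 4.0.16 (R 4.3.3) with TMM normalization and filterByExpr, in 1 fit of 37 libraries with 5 group means. This fit had no term for the mouse, so both sides of an untreated mouse, and both of mouse 5 in UT, counted as separate libraries. A call required a Benjamini-Hochberg FDR under 0.1 over 18959 genes and at least a 2-fold change, as in the study's methods, and the SE was taken from the F statistic. Ratios were log2 with a pseudocount of 1 CPM, 1 value per mouse, tested by 2-sided exact permutation (all regroupings, absolute difference of means) with adjustment over 32 tests and a threshold of 0.05. The edgeR script was tested on simulated data with known changes. P-values measure the spread between these libraries.

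The same mouse numbers in the labels mark libraries of 1 animal, so they pair the samples. The median correlation of same-mouse deviations was -0.018 for UT and UN (7 pairs), 0.113 for UT and BBN bladder (11 pairs), -0.051 for UN and BBN bladder (7 pairs) and -0.062 for U and untreated bladder (6 pairs). Alternatives were the mouse as a block, DESeq2 1.42.0, limma 3.58.1 (voom), RLE normalization, no filter on low counts, fits of fewer groups, library code range as a covariate, for the ratios a pseudocount of 4 CPM, every library as 1 value and the mean of log2 marker values, and omission of single libraries, of UT 9, of the bladder of mouse 6 and of the 4 shallowest libraries. Leaving out UN 2 with the 4 shallowest, using the earlier library codes alone, sign flips within mice and the within-mouse ratio without mouse 2 were added once the data had been seen. The uroplakins, the gene lists and the tests were chosen with earlier results of these data known. Genes named beside the uroplakins were chosen among the 10 highest and 5 lowest correlations with their mean, the closest companions of each, and up to 4 genes of each list past the thresholds with the largest change in UT against U, with a few of the list described after their values were seen. Not every gene that met this rule is named.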

Additional observations from a re-analysis of the deposited data

Results flagged for a closer look

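Within groups of 4 to 10 libraries, a Dixon test at the 95% level marked 10 of 42 sets of values in which 1 library stood apart. For independent sets chance marks about 1 in 20, but these sets share libraries and mice, so the count cannot be set against that rate. All marked sets came from U 2L, UN 2 or U 3L. U 2L was low among the 6 U libraries for Upk1a (184.2 CPM), Upk2 (58.73 CPM) and Upk3b (46.59 CPM), and it also had the lowest epithelial marker sum of the U libraries, 169 CPM. UN 2 was low among the 7 UN libraries for Upk1b (3.747 CPM), Upk2 (0.2742 CPM) and Upk3a (2.468 CPM), and its log2 ratio of Upk1b to Upk3b (0.9471) was low too, beside an epithelial marker sum of 8.27 CPM. U 3L was high for the log2 ratio to the epithelial markers of Upk1a (0.6281), Upk2 (-0.9545) and Upk3a (1.957). The part of epithelial content in these values was not tested.

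The difference between the log2 BBN changes of Upk2 in UN and in bladder was 3.856 in an interaction test of edgeR (adjusted p = 0.0555). It did not pass with the mouse as a block (3.33, adjusted p = 0.261, limma), nor in edgeR without UN 4, U 2L or any 1 untreated bladder (adjusted p from 0.106 to 0.155).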

How the results depend on the processing

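The counts of uroplakins called in UT against U (3), BBN against untreated bladder (5), UN against BBN bladder (0) and UT against BBN bladder (1) stayed within 1.5 times of these values under the alternatives run. For UN against U the count of 1 became 2 with limma voom and a variance for each group, and 0 to 1 when 1 library was left out. For UT against UN the count of 0 became 1 with the ureter libraries alone and 1 with DESeq2, and 0 to 1 when 1 library was left out. For U against untreated bladder it was 3 to 5 when 1 library was left out. For the UN response against the bladder response the count of 1 became 2 with the compared groups alone, with DESeq2, with voom, without the bladder of mouse 6 and without UN 2 and the 4 shallowest libraries, 3 with the earlier library codes alone, 0 with the replicate block and 0 to 4 when 1 library was left out. Of the partner ratios 5 of 12 passed. The replicate block by sign flips within mice could be run for UT against UN only, where 1 of 3 partner ratios had passed and 0 did so with it. Of the ratios to epithelium 17 of 20 passed, 11 without UN 2 and the 4 shallowest libraries and of the 5 between UT and UN, 4 passed without and 0 with sign flips. The cause of these shifts was not tested. The block changed no other uroplakin count.

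The values that changed sign had passed no threshold. Upk1b was 0.0001 in UN against U without UN 2 and the 4 shallowest libraries, and in UT against UN 0.40 with voom and -0.40 to 0.11 when 1 library was left out. Upk3a in UT against UN was 0.094 with the block, 0.017 with the earlier codes and -0.66 to 0.20 with 1 library left out. In UN against BBN bladder, Upk1a was 0.21 without the bladder of mouse 6 (-1.02 to 0.21 with 1 library left out), Upk1b 0.036 with the earlier codes, and Upk2 -0.19 and Upk3a -0.070 with the block. In UT against BBN bladder, the earlier codes gave 0.0070 for Upk1b, 0.061 for Upk2 and 0.38 for Upk3b, Upk2 was 0.038 without the bladder of mouse 6 (-0.68 to 0.038 with 1 left out), and Upk3a was -0.027 to 0.70 with 1 left out. For the Upk3bl difference of responses, values were 0.36 without the 4 shallowest libraries, 0.61 without UN 2 as well, and -2.16 to 0.17 with 1 left out. The Upk1b to Upk3a ratio in UT against UN was -0.0093 to 0.57 with 1 left out.

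Over all genes, UT against UN gave 492 calls, 1763 with DESeq2, 4 with the block and 0 with the compared groups alone. RLE normalization moved the median log2 fold change of all genes in BBN bladder from 0.23 to 0.41, and the share of calls that were higher in UN against BBN bladder from 47.4% to 35.9% and in the difference of responses from 78.8% to 66.8%.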
